A study of Homo sapiens with 19 samples.

Results

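Tight junctions seal the gaps between neighbouring epithelial cells near their apical surface, and they mark the border between the apical and the basolateral membrane. Membrane-spanning proteins of the MARVEL family (occludin, tricellulin and MARVELD3) sit in the seal and bind a cytoplasmic plaque of scaffolds, the zonula occludens proteins and cingulin, which link it to the actin cortex. The Crumbs complex, in which CRB3 is the membrane protein and PATJ a scaffold of many PDZ domains, sets where the apical domain forms. In the lining of the colon these proteins hold the barrier between the gut lumen and the tissue.

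The genes described were chosen by name: the plaque scaffolds CGN, TJP1 and TJP3, the MARVEL genes OCLN, MARVELD2 and MARVELD3, the adhesion molecule F11R, and the polarity genes CRB3 and PATJ. Of these 9 genes, 8 were measured, by 22 probe sets, among 19775 genes and 54613 probe sets in all. F11R, which encodes junctional adhesion molecule A, has no probe set of its own in the annotation used and was not analysed here. They were measured on 19 Affymetrix arrays of established colorectal cancer cell lines, which were untreated and collected while growing exponentially in DMEM with fetal serum. The labels give RKO, SW48, HCT116, LIM2405 and LS174T as microsatellite unstable (MSI) and HT29, T84, CACO2, SKCO1 and HCC2998 as microsatellite stable (MSS). Microsatellite instability is the build-up of length changes in short DNA repeats in cells that lack mismatch repair. Duplicate cultures were arrayed for 9 lines and T84 had 1 array, and arrays of the same line were averaged, so that n = 5 lines per group. Each line stands for 1 tumour.

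All values are log2 signals, so a difference of 1 is a doubling. Levels of different probe sets are not on a shared scale, and only lines are compared. The median of all values was 5.67 log2, and 19 of the 22 probe sets had a mean above it. The exceptions were the PATJ probe sets 239173_at, 232041_at and 240570_at.

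RKO stood apart from the other lines in part of its epithelial markers, which touches every result below. The mean over 12 epithelial markers was 6.50 in RKO and 8.71 to 12.48 in the other 9 lines. In RKO the adhesion molecule EPCAM was at 6.15 and E-cadherin (CDH1) at 3.95, against 12.85 to 13.79 and 11.94 to 13.33 elsewhere. RKO was the lowest line for 6 of the 12: these genes, CDH17 and the keratins KRT8, KRT18 and KRT19, though KRT18 was at 12.81 against 13.68 to 14.49. The other 6 lay inside the range of the other lines, among them CDX1, an intestinal transcription factor, at 8.05 against 7.23 to 10.50. The means of 8 fibroblast, 6 leukocyte and 6 endothelial markers lay between 4.81 and 5.59 in all lines, under the median of all values. The first RKO culture also had the highest signal of the 18S ribosomal RNA control, 11.63, against 7.29 in its second culture and 7.25 to 9.29 on the other arrays. With RKO given by its second culture alone, the counts of MSI against MSS calls below were the same.

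The first comparison asked whether MSI and MSS lines differ in these genes. Cingulin (CGN), a plaque protein that binds ZO proteins and myosin, separated the groups. Its probe set 223233_s_at was at 8.30 in HCT116, 7.70 in LIM2405, 7.39 in LS174T, 6.38 in RKO and 5.86 in SW48. The MSS lines had 10.36 in HCC2998, 10.20 in CACO2, 9.71 in SKCO1, 9.50 in T84 and 9.09 in HT29. All MSI lines were therefore below all MSS lines. In RNA from whole cultures, fewer expressing cells and less RNA per cell cannot be told apart. The group means were 7.12 ± 0.99 in MSI and 9.77 ± 0.52 in MSS (SD, n = 5), a difference of -2.65 with a 95% interval of -3.70 to -1.60, or 6.27-fold lower in MSI. Taken across all genes, this difference had a limma adjusted p of 0.114 and did not pass the threshold of 0.05.

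The second CGN probe set, 223232_s_at, gave the same order of groups. Its MSI values were 6.84 in HCT116, 6.38 in LIM2405, 5.79 in RKO, 5.47 in LS174T and 5.41 in SW48. The MSS values were 9.91 in HCC2998, 9.57 in CACO2, 8.92 in SKCO1, 8.59 in T84 and 8.21 in HT29. LS174T, RKO and SW48 were within 0.5 of the median of all values, close to the level at which low signals understate differences. The difference was -3.06 ± 0.39 (SE), 8.34-fold lower in MSI, with a limma adjusted p of 0.0251 over all probe sets. It was the only one of the 22 probe sets that passed, against 0.189% of all probe sets tested in either direction and 0.141% that were lower in MSI. Without RKO, SW48, HCC2998 or SKCO1 the adjusted p was 0.0883, 0.0704, 0.0523 or 0.0585, and the difference stayed between -3.28 and -2.84 whichever line was left out. The 2 CGN probe sets were the only ones of the 22 whose groups did not overlap, against 1.19% of all probe sets that were lower in MSI without overlap and 0.597% of genes.

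ZO-3 (TJP3), the zonula occludens protein found mainly in epithelia, split the MSI lines. Its probe set 35148_at was at 8.91 in LS174T and 8.75 in HCT116, but at 7.11 in RKO, 7.03 in LIM2405 and 6.84 in SW48. The MSS lines lay at 9.55 in HT29, 9.22 in HCC2998, 9.17 in T84, 8.77 in CACO2 and 8.69 in SKCO1. LS174T and HCT116 thus fell inside the MSS range and the other MSI lines fell more than 1 log2 below it. The difference of -1.35 ± 0.45 (SE) had a limma adjusted p of 0.370. The second probe set, 213412_at, correlated with the first at r = 0.99 over the 10 lines and differed by -1.56, with a limma adjusted p of 0.290 over probe sets.

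ZO-1 (TJP1), the scaffold that ties claudins and occludin to actin, varied least among the brightest probe sets of the 8 genes. Probe set 202011_at was at 12.32 in LIM2405, 12.03 in SW48, 11.81 in HCT116, 11.49 in LS174T and 11.48 in RKO. Among MSS lines it was at 12.36 in HT29, 12.11 in SKCO1, 11.95 in T84, 11.93 in CACO2 and 11.89 in HCC2998. The lines of both groups overlapped, and the whole range was 0.88, a 1.84-fold span, against a 22.5-fold span for CGN. The difference was -0.22 with a 95% interval of -0.63 to 0.18 (limma adjusted p = 0.703). The dimmer probe set 214168_s_at ranged more, from 7.60 in RKO to 9.81 in LIM2405, with a difference of -0.12. Its 4.60-fold span was wider than the 2.86-fold span of CRB3.

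Occludin (OCLN), the first membrane protein described at tight junctions, also overlapped between the groups. Probe set 227492_at was at 12.46 in LIM2405, 11.83 in HCT116, 11.54 in LS174T, 11.09 in SW48 and 10.62 in RKO. The MSS values were 12.78 in HCC2998, 12.38 in CACO2, 11.72 in T84, 11.55 in SKCO1 and 11.38 in HT29. RKO and SW48 were the lowest lines, and LIM2405 was second highest of all 10. The difference was -0.46 with a 95% interval of -1.32 to 0.41 (limma adjusted p = 0.712). The other OCLN probe sets differed by -0.57, -0.63 and -0.97, and each had RKO or SW48 as the lowest line and HCC2998 as the highest.

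Tricellulin (MARVELD2), which closes the corners where 3 cells meet, was lowest in RKO. Probe set 235141_at was at 10.48 in LS174T, 9.82 in HCT116, 9.68 in LIM2405, 9.43 in SW48 and 8.43 in RKO. In the MSS lines it was at 11.36 in HCC2998, 11.26 in T84, 10.44 in SKCO1, 10.22 in HT29 and 10.08 in CACO2. LS174T was the only MSI line inside the MSS range. The difference was -1.10 ± 0.40 (SE), with a limma adjusted p of 0.404, and the second probe set 235955_at differed by -1.26.

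MARVELD3, another protein of the family, had a wide range between lines. Probe set 239148_at was at 8.98 in LS174T, 8.96 in LIM2405, 7.58 in SW48, 7.32 in HCT116 and 5.77 in RKO. The MSS values were 9.61 in CACO2, 8.74 in T84, 8.26 in HCC2998, 7.96 in SKCO1 and 7.79 in HT29. RKO was near the median of all values and 1.55 below the next line, while LS174T and LIM2405 lay inside the MSS range. Duplicate cultures differed by up to 1.02 for this gene, in HT29. The difference was -0.75 with a 95% interval of -2.17 to 0.67 (limma adjusted p = 0.712). The probe sets disagreed on LS174T, which was second highest by 239148_at but near the low end, at 7.68, by 239350_at and at 6.41 by 233634_at, where RKO had 6.26 and HCT116 6.27.

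The polarity genes showed no separation of the groups. CRB3, the small Crumbs protein of epithelia, was at 9.66 in LIM2405, 9.15 in LS174T, 8.90 in HCT116, 8.77 in SW48 and 8.14 in RKO. The MSS lines lay between, at 9.25 in T84, 9.09 in SKCO1, 8.95 in HT29, 8.85 in CACO2 and 8.65 in HCC2998. MSI lines thus held both the highest and the lowest value. The difference was -0.03 with a 95% interval of -0.61 to 0.54 (limma adjusted p = 0.972).

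PATJ, the scaffold that joins the Crumbs complex to the tight junction plaque, had a low line in each group. Probe set 223681_s_at was at 10.37 in LS174T, 10.06 in LIM2405, 9.08 in SW48, 9.03 in HCT116 and 7.22 in RKO. Among MSS lines it was at 10.15 in SKCO1, 9.69 in HT29, 9.64 in T84, 9.41 in HCC2998 and 7.48 in CACO2. The difference between RKO and CACO2 did not pass the threshold (limma adjusted p = 0.467 for the pair), and both were below every other line by at least 1.5 log2. CACO2 was also the lowest line by 214705_at, at 5.16, and by 239173_at, at 5.01, while 214493_s_at put it at 5.80, between SW48 at 5.72 and RKO at 5.92. Duplicate cultures differed by up to 2.31 by 214705_at, in LS174T, and by 0.65 in CACO2. The difference between the groups was -0.12 with a 95% interval of -1.62 to 1.38 (limma adjusted p = 0.959).

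The remaining PATJ probe sets were dim. Probe set 240570_at was at 6.65 in LS174T, with 6.91 and 6.39 in its duplicate cultures, and between 3.46 and 4.25 in the other 9 lines. Probe set 232041_at ranged over only 0.39 and did not differ between lines (limma F test, adjusted p = 0.624).

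**Figure D1:**
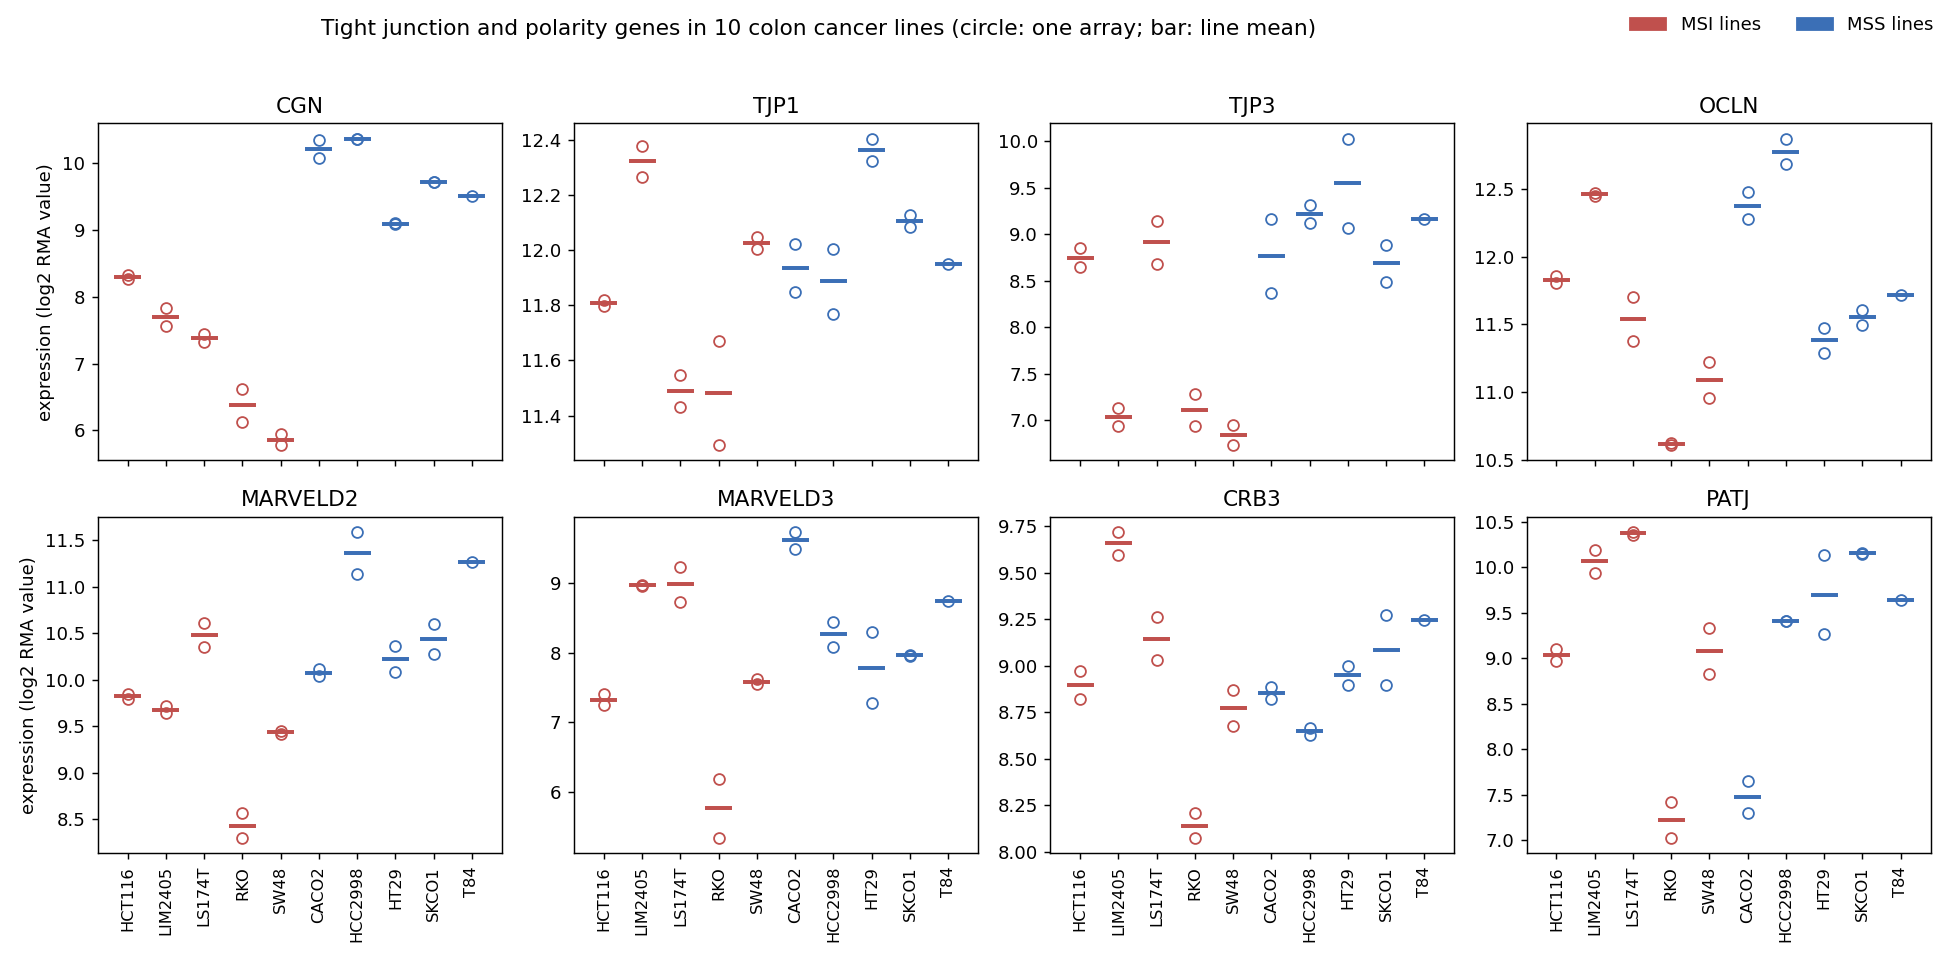
Log2 signal of the representing probe set of each of the 8 measured genes in each line, with 1 panel per gene and a vertical scale of its own. Small points are arrays, bars are line means, and colours mark MSI and MSS. CGN is the gene whose MSI lines, at 5.86 to 8.30, all lie below the MSS lines, at 9.09 to 10.36. RKO has the lowest line mean in 6 of the 8 panels.

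Counted over the group, 0 of the 8 genes passed the limma threshold of 0.05 between MSI and MSS, against 0.0455% of all genes. At an unadjusted p under 0.05, 3 of 8 genes (CGN, TJP3 and MARVELD2) were lower in MSI, against 3.01% of all genes, and none was higher, against 6.76%. The equal-variance test run as an alternative called 0 genes as well. The difference was below 0 for 8 of 8 genes, with a median of -0.60, while it was below 0 for 35.7% of all genes, whose median was 0.07. It was also below 0 for 12 of the 12 epithelial markers, with a median of -1.92, and -0.98 without RKO. Lower values in MSI were thus not particular to the members. Over probe sets, 20 of 22 were below 0, against 39.0% of all probe sets. At an unadjusted p under 0.05, 6 of 22 were lower and 0 higher in MSI, against 4.79% of all probe sets lower and 10.4% in either direction. The members' lower values rested in part on RKO: leaving it out gave a median difference of -0.25.

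**Figure D2:**
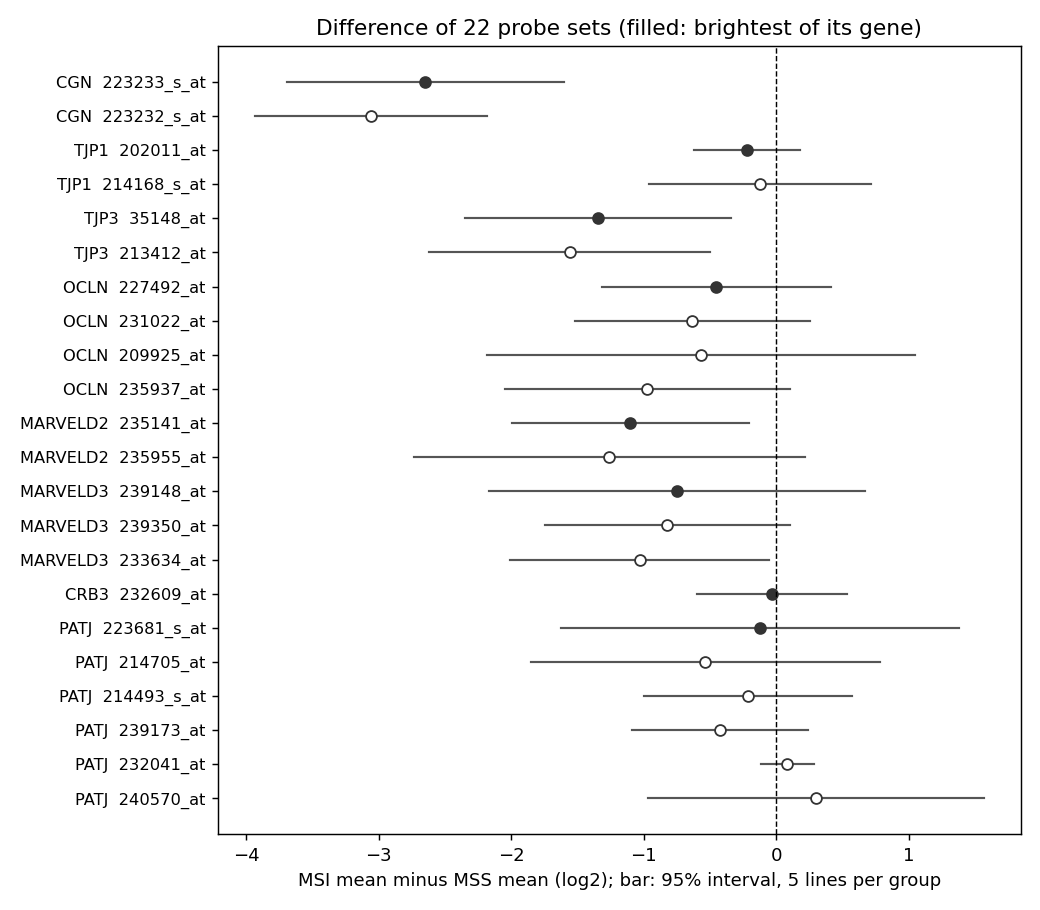
MSI minus MSS difference in log2 signal for each of the 22 probe sets, grouped by gene, with 95% intervals over 5 lines per group. Of the 22, 20 lie below 0, and CGN probe set 223232_s_at, at -3.06, is the 1 that passed the adjusted threshold.

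Leaving out RKO changed the size of the difference unevenly across genes. CGN remained at -2.46, TJP3 at -1.19 and MARVELD2 at -0.82. OCLN came to -0.23, MARVELD3 to -0.26 and TJP1 to -0.14. CRB3 and PATJ changed sign, to 0.16 and 0.36. Leaving out LIM2405, the MSI line with high TJP1 and OCLN, moved those genes the other way, to -0.35 and -0.69.

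**Figure D3:**
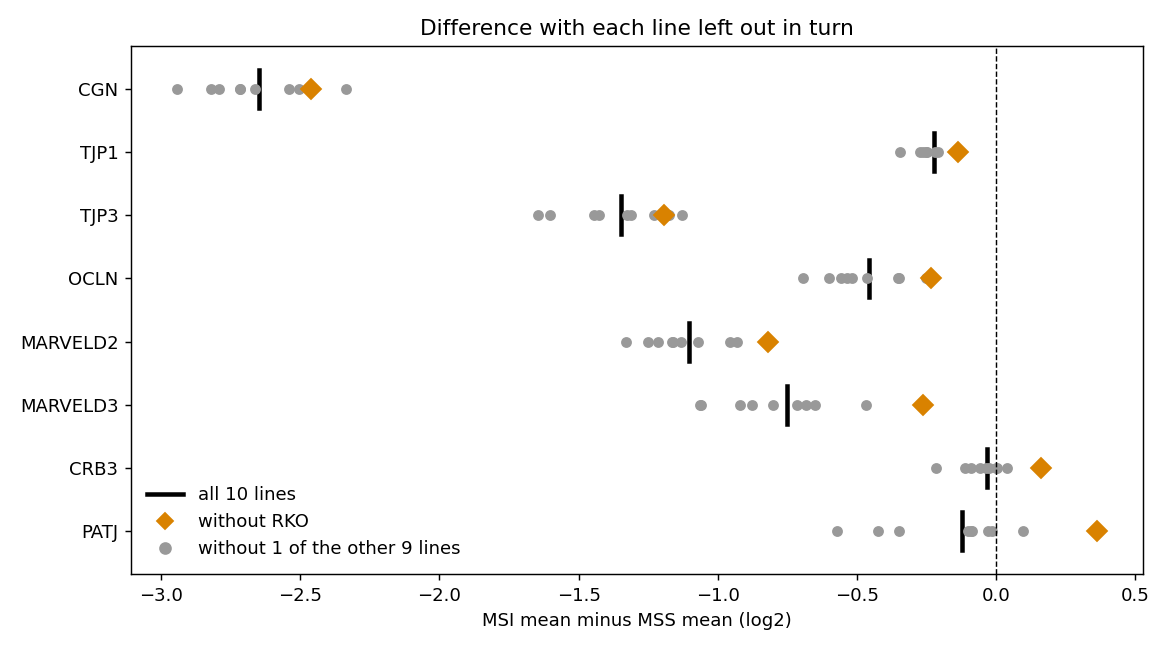
MSI minus MSS difference in log2 signal for each of the 8 genes with all 10 lines and with each line left out in turn. The values for CGN stay between -2.94 and -2.33, while those for CRB3 run from -0.22 to 0.16 and those for PATJ from -0.57 to 0.36, on both sides of 0.

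The second comparison set single lines against each other. All 8 genes differed between the 10 lines (limma F test on 19 arrays, adjusted p under 0.05), as did 67.0% of all genes, and so did 21 of the 22 probe sets, against 60.2%. These tests set the differences between lines against only the spread between duplicate cultures of a line. Of the 360 gene and line pairs, 212 passed the limma threshold, against 30.0% over all genes. T84 has 1 array, so its pairs, which are counted in these, borrow the spread of the duplicates of other lines. Among the 72 steps between lines next to each other in order, 13 passed, against 5.40% of such steps over all genes, and the rest did not exceed the spread between cultures by this test.

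Of the 13 steps, 4 set RKO alone below the other lines. RKO was below SW48 for MARVELD2, at 8.43 against 9.43, and by 0.47 for OCLN, below HCT116 by 1.55 for MARVELD3, and below HCC2998 by 0.51 for CRB3. For PATJ the step of 1.56 from HCT116 down to CACO2 set off CACO2 and RKO. Higher in the order, T84 was above LS174T by 0.78 for MARVELD2 and CACO2 above HCT116 by 0.55 for OCLN. For TJP3 the step was between SKCO1 and RKO, at 1.58, and the steps among RKO, LIM2405 and SW48 below it did not pass. For TJP1 0 of the 9 steps between neighbours passed, and for CGN 5 passed, among them the step of 0.79 from HCT116 up to HT29 at the border between the groups.

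RKO was the lowest line for 6 of the 8 genes, against 6.05% of all genes, and SW48 was the lowest for CGN and TJP3. For TJP1, RKO was below LS174T by only 0.006 (limma adjusted p = 0.983 for the pair). There the second RKO culture, at 11.67, lay above the LS174T mean of 11.49, so this place rested on the first culture. Of 72 comparisons of RKO with another line, 66 passed, against 31.8% for all genes. By the brightest probe set of each gene, the median of the other 9 lines was above RKO by 6.56-fold for CGN, 5.63-fold for MARVELD3, 5.34-fold for PATJ, 3.45-fold for MARVELD2 and 3.16-fold for TJP3. For OCLN, CRB3 and TJP1 it was 2.15-fold, 1.75-fold and 1.38-fold. These sizes depended on the probe set. By TJP1 214168_s_at the median of the others was 2.57-fold above RKO, and by OCLN 209925_at 4.70-fold. By PATJ 214705_at it was 1.74-fold, with 3 lines below RKO, and 2 lines were below it by each of 214493_s_at and 239173_at. The mean over the 8 genes, each centred on its own mean, was -1.47 in RKO, -0.78 in SW48 and -0.14 to 0.63 in the other lines, with HCC2998 highest.

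**Figure D4:**
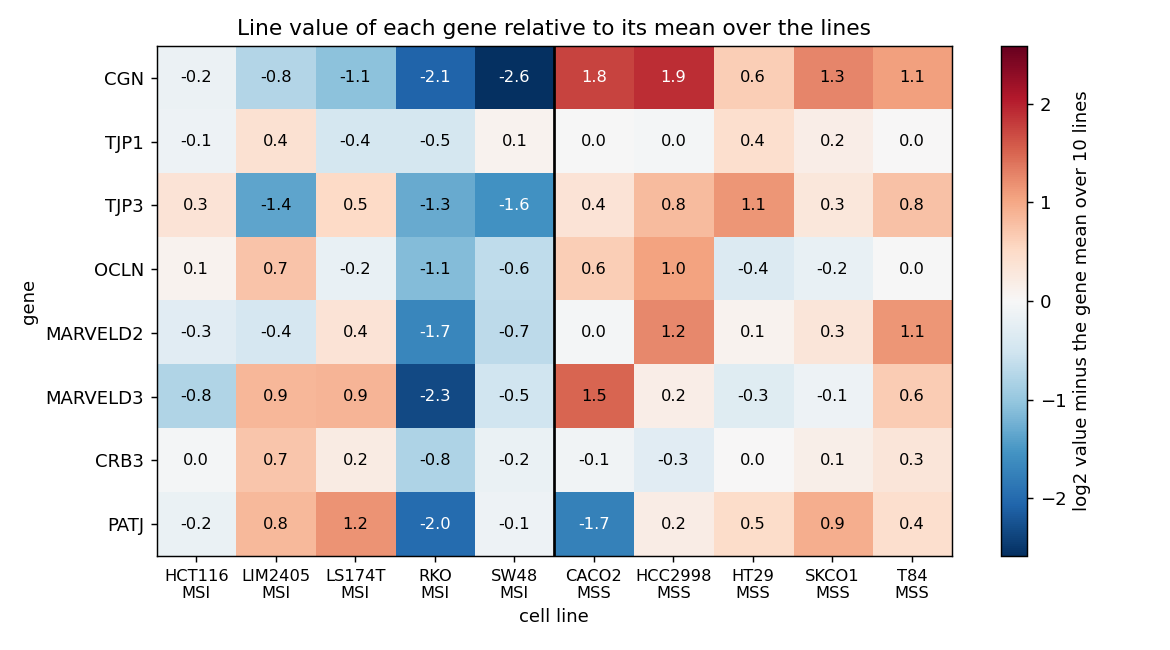
Log2 signal of each of the 8 genes in each line after subtraction of the average of its 10 line values, so that negative values lie below that average. The RKO values are below 0 throughout, with a mean of -1.47, and CACO2 is low for PATJ while it is the highest line for MARVELD3.

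The members varied together only loosely once RKO was set aside. Over the 10 lines, 28 of the 28 pairs of genes had a Pearson r above 0, with a median of 0.40, and without RKO 18 of 28, with a median of 0.08. These are descriptions over lines that share their arrays and normalization. The closest pair was CGN and TJP3, at r = 0.78 and 0.73 without RKO. MARVELD2 and TJP3 had r = 0.77, and CRB3 and PATJ, partners in the Crumbs complex, had r = 0.73, which was 0.51 without RKO. TJP1 and TJP3, which encode related ZO proteins, had r = 0.06.

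Among 9888 genes that varied at least as much as the median gene, likeness to each member was taken as Pearson r over the 10 lines. CGN was followed most closely by TXNDC9 (r = 0.96), TJP3 by TSPAN31 (0.93) and TJP1 by PDIA3 (0.92). MARVELD2 was closest to TRIM15 (0.96), OCLN to MED28 (0.90) and PATJ to TMEM87A (0.94). Next came LARP4B and PPP1CB for CGN, RTL8A and ACSL5 for TJP3, and AMIGO2 and SELENOS for TJP1. For MARVELD2 they were IFNGR1 and TRIM10, for OCLN CFLAR and LYRM2, and for PATJ ZZZ3 and MARF1. Their r lay between 0.85 and 0.95. MARVELD3 was closest to EPB41L5 (0.97), which encodes a band 4.1 family protein, then SOWAHA (0.93) and OVOL1, an epithelial transcription factor (0.92). Without RKO these values were 0.92, 0.98 and 0.82. CRB3 had HIVEP1 first (0.90), then ALG13 (0.89) and GRHL2, another epithelial transcription factor (0.87). For CRB3 the values without RKO were 0.85, 0.78 and 0.74. With only 10 lines, values of this size were found for every member.

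Of a list of 15 genes that regulate or mark the epithelial state, 14 were measured. RKO was the lowest line for 7 of them, against 6.05% of all genes. Those that differed in RKO by at least 2 log2 from the mean of the other lines were CDH1, given above, and the following 6. ZEB1, a repressor of epithelial genes that binds E-box sequences in DNA, was at 9.57 in RKO, 7.10 in LIM2405 and 3.38 to 4.57 in the other 8 lines. GRHL2, an activator of epithelial genes, was at 6.38 in RKO and 8.24 to 10.05 elsewhere, and OVOL1 was at 6.32 against 8.12 to 9.45. The splicing factor ESRP1 was at 4.35 in RKO and 11.46 to 13.03 elsewhere, and ELF3 and KLF5 were at 6.35 and 5.77 against at least 8.76 and 9.32. ZEB2, SNAI2, TWIST1, GRHL1 and OVOL2 lay in RKO inside the range of the other lines, for example GRHL1 at 8.37 against 7.25 to 9.89. GRHL3 was lowest in RKO by little, at 4.59 against at least 4.62, under the median of all values. SNAI1 was highest in RKO, at 6.87 against at most 6.65. The part of these genes in the low members of RKO was not tested. LIM2405, the line with the second highest ZEB1, had the highest CRB3 of all lines and the second highest OCLN, but the second lowest TJP3 by 35148_at.

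RKO was the lowest line for 6 of the 8 genes, and of these only the promoters of the Crumbs complex genes CRB3 and PATJ are shown. They held the most copies per promoter of the E-box searched, a kind of sequence that ZEB1 is known to bind. MARVELD2 was also lowest in RKO, and its promoter held none. RefSeq entries of GRCh38.p14 were found for 7 of the 9 genes, 12 promoters in all, and the 250 bases before each start were searched for CAGGTG on both strands, where the other strand reads CACCTG. Copies are in capitals, each is printed 5′ to 3′, and both lie on the plus strand, CRB3 at chr19:6464021-6464270 and PATJ at chr1:61742230-61742479.
CRB3: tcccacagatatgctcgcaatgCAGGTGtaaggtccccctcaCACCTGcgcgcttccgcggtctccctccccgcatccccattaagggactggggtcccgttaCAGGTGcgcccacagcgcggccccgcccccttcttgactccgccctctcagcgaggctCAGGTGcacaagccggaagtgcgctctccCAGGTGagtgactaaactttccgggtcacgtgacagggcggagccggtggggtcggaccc
PATJ: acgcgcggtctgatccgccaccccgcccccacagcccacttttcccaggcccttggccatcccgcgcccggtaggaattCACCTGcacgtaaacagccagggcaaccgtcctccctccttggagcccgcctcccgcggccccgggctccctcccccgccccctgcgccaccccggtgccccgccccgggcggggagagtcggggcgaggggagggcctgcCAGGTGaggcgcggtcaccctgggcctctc
The CRB3 promoter held 5 copies and that of PATJ 2. Of 35116 promoters, 17.5% held the motif, 2.53% held at least 2 copies and 0.074% held at least 5. The cut-offs of 2 and 5 are the counts of the promoters shown, which were picked for having the most copies. These shares are therefore no test of the motif in the members. Over the members, 6 of the 12 promoters held at least 1 copy. Among these were promoters of TJP1, TJP3 and OCLN, though other promoters of TJP1 and TJP3 had none. Those of CGN and MARVELD2 had none. The palindrome AACCGGTT, searched as a GRHL2 site, was in 0 of the 12 promoters, against 0.117% of all. A match of letters is a description of the sequence, and binding was not measured.

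Other genes of tight junctions and polarity were taken from a list of 42, of which 38 were measured. None passed the limma threshold between MSI and MSS. At an unadjusted p under 0.05, 1 was lower and 4 were higher in MSI, against 3.01% and 6.76% of all genes. Of the 38 differences 21 were below 0, against 35.7% of all genes, with a median of -0.08. MAGI3, a membrane-associated scaffold, was the lower one, at 7.17 ± 1.11 in MSI and 8.50 ± 0.26 in MSS (SD, n = 5 lines; limma adjusted p = 0.396). The next in that direction were MARK2, a polarity kinase, at -0.76 and the tricellular protein LSR at -0.83. PARD6G, a PAR6 protein of the polarity complex with PAR3, was higher in MSI, at 7.32 ± 1.09 against 5.66 ± 0.33 (SD, n = 5 lines; limma adjusted p = 0.303). ILDR2, LLGL1, a lateral polarity protein, and TJAP1 had differences of 0.93, 0.75 and 0.51. Without RKO, where ILDR2 was at 7.31 against 5.45 to 5.83 in the other MSI lines, its difference was 0.60.

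RKO was the lowest line for 5 of the 38 other genes, against 6.05% of all genes. One of them, chosen after its values were seen, was CXADR, the junction protein that serves as the coxsackievirus and adenovirus receptor. It was at 5.48 in RKO and 10.87 to 13.25 in the other lines. For other genes of the 38 RKO was the highest line, namely ILDR2, PARD3, PARD6A and SCRIB. These were at 7.31, 10.11, 7.96 and 11.03 in RKO, against at most 5.83, 9.97, 7.91 and 10.97 elsewhere.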

How the data were processed

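Total RNA was labelled and hybridised to 19 arrays, per the labels' protocols. The deposited log2 values were made by the authors with RMA, which corrects background, normalizes and summarizes probes, per the submitters' processing notes. Its settings were not given in the sources used here. Both deposited tables hold the same values, and no normalization was added. Arrays give no counts, and the number of lines limits precision.

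Of 54675 probe sets, 62 controls were left out. The platform annotation names 1 gene for 41091 of the rest, several for 1801 and none for 11721. A gene was represented by the brightest of its single-gene probe sets, with no filter on dim ones.

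Each line was the average of its arrays, and the 5 MSI lines were set against the 5 MSS lines with limma 3.58.1 in R 4.3.3 (two-sided, Benjamini-Hochberg over all probe sets or all genes, threshold 0.05). Lines were compared with limma on the 19 arrays, and pair tests were adjusted over all genes within each pair. Fits were tested on simulated data. The labels do not say whether duplicates were separate thaws, so their spread may be technical. Culture numbers did not pair arrays across lines: the differences between cultures of 36 pairs of lines correlated at -0.21 to 0.27, with 7 over 0.1.

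The members and lists were chosen with earlier results of these data known. Genes named are all members and the 3 genes of the wider list with the smallest p in each direction. Also named are the 3 genes most like each member by Pearson r. Regulators were named where the RKO value differed from the mean of the other lines by at least 2 log2. Epithelial markers, the other regulators, TJAP1, PARD3, PARD6A, SCRIB and CXADR were named after their values were seen. Promoter sequences are from RefSeq. Alternatives were median centring, quantile normalization, filters, other representations of a gene, other tests, a replicate block, 1 culture per line and each line left out. RKO by its second culture was added after seeing the data.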

Additional observations from a re-analysis of the deposited data

Results flagged for a closer look

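In 44 groups of 5 lines, each of the 22 probe sets in MSI and in MSS, the gap between the end line and its nearest neighbour was set against the range of the group. It exceeded 0.71 of the range in 4 groups, and chance gives about 1 in 20.

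PATJ was flagged by 3 probe sets. In CACO2 it was the lowest of the MSS lines by 223681_s_at, at 7.48 against 9.41 in the next line (0.723 of the range), and by 214705_at, at 5.16 against 7.56 (0.749). In LS174T probe set 240570_at was the highest of the MSI lines, at 6.65 against 3.83 (0.885). For TJP1, probe set 214168_s_at was lowest in T84 among MSS lines, at 8.20 against 8.96 (0.778), and T84 had 1 array.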

How the results depend on the processing

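The number of member probe sets past the threshold between MSI and MSS, 1 in the main test, was 2 without dim probe sets, 2 with all arrays and line as a random block, and 0 with the equal-variance test. It ranged from 0 to 1 with each line left out. The number of member genes past it, 0 in the main test, was 1 with line as a random block and 1 with each gene given by the probe set of largest interquartile range. Calls over all genes rose too, from 9 to 350 and 62, and over all probe sets from 103 to 1153 with the random block. The member gene was CGN both times, with limma adjusted p of 0.000393 and 0.0170. The random block gave all genes 1 correlation between arrays of a line, 0.732. Where duplicates of a gene agree more closely than that, the fit counts arrays as more independent than they are. For CGN 223233_s_at the SD between duplicates was 0.155, against 0.99 between MSI lines and 0.52 between MSS lines. Over its alternatives the adjusted p of CGN ran from 0.000393 to 0.234, and its difference from -3.06 to -2.33. CRB3 changed sign with the first culture only, to 0.00898, and ran from -0.22 to 0.16 with each line left out. PATJ ran from -0.57 to 0.36 with each line left out. The other 6 genes kept their sign throughout. With the replicate block, 1 probe set and 0 genes passed between MSI and MSS, and 215 line pairs did, against 212. The causes of these changes were not tested. Low signals near the array background understate differences, which touches CGN in LS174T, RKO and SW48.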
